A study of Oryza sativa Indica Group with 16 samples.

Results

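The salt response of the rice variety MI48, labelled the salt sensitive parent, was measured on 4 of the 16 arrays of the study. All 4 samples titled MI48 were taken: 2 arrays of control seedlings and 2 arrays of seedlings given 150 mM NaCl for 24 hours, all of them 10 days after germination. The study also held CSR27, the salt tolerant parent, and 2 bulks, each a pool of salt tolerant or salt sensitive recombinant inbred lines from these parents, with 2 control and 2 salt arrays each under the same treatment. The labels state separate biological replicates, name whole seedlings and no organ, and do not say how many seedlings gave each RNA. MI48 is 1 variety, and its arrays alone therefore cannot separate salt sensitivity from any other property of that variety.

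Salt limits water uptake and loads leaf and root cells with sodium. Plants answer through abscisic acid (ABA), which is bound by soluble receptors that block type 2C protein phosphatases (PP2Cs), so that SnRK2 kinases and ABA-responsive transcription factors become active. Known products of this pathway in rice seedlings are the dehydrins and other late embryogenesis abundant (LEA) proteins, which protect membranes and proteins in dry cells, the HD-Zip I transcription factors and the PP2Cs themselves. Heat shock proteins hold unfolded proteins in solution. Rice roots take up iron with phytosiderophores made from nicotianamine and also as free ferrous iron.

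The MI48 arrays differed in brightness, which limits every value below. The deposited signals had a median of 1.9 and 1.5 on the control arrays, against 86.3 and 4.6 on the salt arrays, so the controls were dim and salt replicate 1 was the brightest array of the series. At or below a signal of 1 lay 39.1% and 42.3% of the probe sets of the controls, 0.021% of those of salt replicate 1 and 26.5% of those of salt replicate 2. Whether brightness had a part in the differences was not tested beyond the normalization alternatives. The arrays were put on a common distribution (quantile normalization), and all levels are log2(signal + 24.4), where 24.4 is the pseudocount. Of 57258 rice probe sets, the 14315 with the highest mean over the 4 arrays were called bright and used. The rank correlation between the salt arrays was 0.766, and that between the controls was 0.658. Control replicate 1 correlated with salt replicate 1 at 0.709, more closely than with the other control. The 8 bulk arrays correlated with each other at 0.900 to 0.928.

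Control replicate 2 stood nearer to the salt arrays than to control replicate 1 for some stress genes, most of all the dehydrins and LEA proteins. Over the 9 bright probe sets of this list the median level was 7.89 on control replicate 1 and 13.74 on control replicate 2, next to 14.06 and 14.71 on the salt arrays. The level on control replicate 2 was above that on control replicate 1 for 9 of the 9, against 50.9% of all bright probe sets. With the 14 arrays that carried rice signal normalized together, the list's median was 7.85 on MI48 control replicate 1 and between 7.93 and 9.33 on the other 5 control arrays, but 13.65 on MI48 control replicate 2. The salt arrays of the bulks lay between 11.57 and 12.21, so this control array stood above them. Some other stress lists leaned the same way. The level on control replicate 2 was above that on control replicate 1 for 15 of 17 bright probe sets of heat shock factors (medians 8.74 and 9.95 in control, 10.21 and 11.03 in salt) and for 42 of 61 of ABA signalling (9.93 and 10.60, then 10.83 and 11.02). NAC factors (2 of 6), larger chaperones (7 of 14) and chitinases and pathogenesis-related genes (4 of 10) did not. Lists outside stress also had control replicate 2 above: photosynthesis (13 of 15), aquaporins (18 of 22) and iron uptake (15 of 21). For the root markers control replicate 2 (median 13.94) lay farther from the salt arrays (9.49 and 6.36) than control replicate 1 (11.065). Whether the array was mislabelled or its seedlings were stressed cannot be settled from the labels. Differences that lean on 1 control array are given below without each control in turn, with the normalization kept.

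No probe set passed limma's test of salt against control at an adjusted p of 0.05, in either direction, which is 0% of 14315. At an unadjusted p under 0.05 there were 1663 probe sets, or 11.6%. The replicates lay far apart: across bright probe sets the SD of the difference was 1.03 between the 2 controls and 1.15 between the 2 salt arrays. For the difference between the means of salt and control, which average 2 arrays each, it was 1.06. Arrays in groups of 2 cannot give an exact permutation p under 0.333. Probe sets were therefore described by separation, meaning that both salt arrays lay on the same side of both control arrays with at least 1 log2 unit between the nearest arrays. By this description 490 bright probe sets (3.42%) were higher and 525 (3.67%) lower on the salt arrays, together 1015 (7.09%). A gap of any size was present in 3203 (22.4%) upward and 3320 (23.2%) downward. Separation is not a test, and "higher" and "lower" below state only where the arrays lay.

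**Figure D1:**
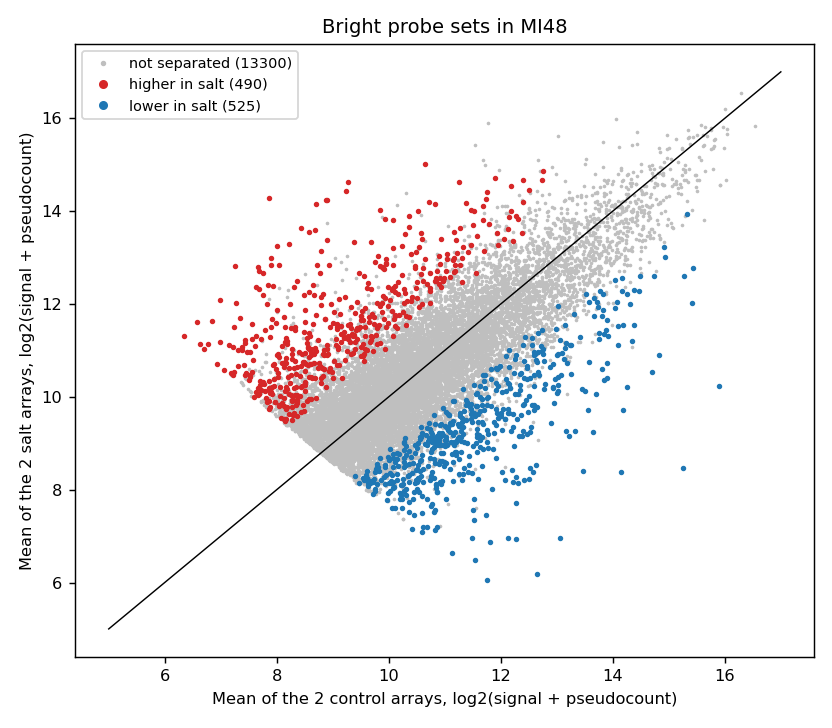
Mean level on the 2 salt arrays (vertical axis) against the mean on the 2 control arrays (horizontal axis) for 14315 bright probe sets of MI48, both as log2(signal + pseudocount), with the line of equal levels. The 490 separated higher probe sets (red) and 525 separated lower ones (blue) lie on both sides of the line over the whole range of brightness.

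The balance between higher and lower depended on the scaling. Quantile normalization forces all arrays to the same distribution, and the median difference over bright probe sets was -0.02. When the arrays were only scaled to a common median, this median moved to 1.13, and 4178 probe sets were separated upward against 56 downward, in place of 490 and 525. The differences are thus relative to the middle of the bright probe sets, and the absolute direction of genes with small differences is not settled. The 30 separated named genes with the largest differences kept their sign under median scaling. Of the 24 list medians, however, all except that of the root markers (-3.65) were then above 0. Of the separated probe sets 85 higher and 95 lower ones carry the name of 1 gene, out of 1944 bright named probe sets (4.37% and 4.89%). Just inside the 1 log2 limit were RFS and OsPSY2 (higher) and LTP2-B (lower), with gaps of 1.00, 1.01 and 1.00. Just outside it were CBP1, GT2 and OsGT47D with gaps of 0.996, 0.993 and 0.991.

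ABA signalling genes held some of the highest differences. Of 61 bright probe sets of PP2Cs, ABA receptors, SnRK2 kinases and ABA-related bZIP factors, 6 were separated higher and 4 lower, against 3.42% and 3.67% of all bright probe sets. The list median was 0.27 against -0.02 for all bright probe sets, and 0.19 or 0.32 without control replicate 1 or 2. OsPP2C59 stood at 5.32 and 10.78 on the control arrays and at 12.30 and 13.35 on the salt arrays. Both salt arrays were above both controls, but the controls were themselves over 5 log2 units apart, and the difference was 4.78 ± 1.64 (SE, n = 2 arrays a group, as for all MI48 differences). OsPP2C30, another phosphatase of this class, read 9.04 and 11.99 in control and 13.49 and 14.54 in salt, a difference of 3.49 ± 1.01. OsPP2C51 read 6.77 and 8.07 against 9.70 and 11.65, which gave 3.26 ± 0.84. For all of these the second control was the higher of the pair. Without control replicate 1 the difference was 2.05 for OsPP2C59 and 2.02 for OsPP2C30, and without control replicate 2 it was 7.51 and 4.97. OsPP2C29 (3.12 ± 0.59), OsPP2C09 (2.64 ± 0.68) and the SnRK2 kinase OsSAPK1 (2.27 ± 0.59) completed the higher members. PP2C68 lay at 6.99 and 11.50 in control against 12.19 and 13.34, with a gap of only 0.69 log2. The lower members were OsPP2C12 at -1.71, OsPP2C13 at -1.30 and OsPP2C73, for which 2 probe sets gave -1.67 and -1.29, so members of this family lay in both directions.

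Of the other transcription factors of the ABA and drought pathways, HOX24 stood out. HOX24, an HD-Zip I factor, read 7.49 and 10.29 in control and 12.27 and 14.47 in salt, a difference of 4.48 ± 1.11 with no overlap, and 3.08 or 5.88 without control replicate 1 or 2. HOX12 differed by 1.60 ± 0.50 and was also separated. Hox22, at 9.09 and 11.96 in control and 12.58 and 13.81 in salt, missed the gap of 1 log2. These 2 were the separated members among 10 bright HD-Zip I probe sets, whose median difference was 0.44. The background for each list of this paragraph is 3.42% separated higher and 3.67% separated lower of all bright probe sets. Among the DREB and ERF factors only 2 probe sets were bright: DREB2B, which binds drought-responsive elements, was separated at 1.23 ± 0.53, and EREBP-1 differed by 0.01 ± 0.51. Of 6 bright NAC probe sets NAC071 was separated at 1.44 ± 0.52, while NAC048 (1.79 ± 0.89) had its second control at 13.89, close to the salt levels of 14.07 and 14.80.

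The dehydrins and LEA proteins had the highest median difference of the 24 lists with bright members, 3.89 over 9 bright probe sets, and at the same time mostly overlapping arrays. RAB21 read 7.89 and 15.67 in control and 15.57 and 16.23 in salt. The second control was thus above the first salt array, and the difference of 4.12 ± 2.27 was less than 2 of its standard errors. RAB16B read 6.86 and 13.74 against 14.06 and 14.71, which gave 4.08 ± 2.02 and a gap of 0.32. RAB16D read 5.32 and 14.45 against 14.88 and 12.87. LEA3-1 read 8.32 and 15.05 against 15.03 and 15.18. For RAB16D and LEA3-1 the groups overlapped. With control replicate 1 left out, the comparison rested on control replicate 2. The median of the list then dropped to 0.40 and RAB16D turned to -0.57. With control replicate 2 left out the list median was 6.78 and RAB16D was at 8.56. Of the 9, 2 were separated higher, against 3.42% of all bright probe sets. One was rab25, at 6.55 and 7.75 in control and 11.35 and 10.86 in salt, a difference of 3.96 ± 0.63. The other was EM, the early-methionine LEA protein known from seeds, at 7.54 and 8.47 against 11.86 and 9.94 (2.90 ± 0.77). These members were low on both control arrays, unlike the RAB16 group.

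Small heat shock proteins, which bind unfolding proteins, were higher for part of the list. Of 13 bright probe sets 6 were separated higher and none lower, against a background of 3.42% and 3.67%, with a median difference of 2.69. HSP17.4 had the closest replicates, at 8.25 and 7.59 in control and 11.44 and 11.92 in salt, a difference of 3.76 ± 0.51. HSP18.6 read 5.0 and 12.16 in control against 13.65 and 13.45 in salt (4.97 ± 2.08), and differed by 1.39 or 8.54 without control replicate 1 or 2. Its deposited signal on control replicate 1 was 0.1, near the bottom of the scale, so the size of this difference depends on the pseudocount. HSP18.1 read 7.89 and 11.24 against 12.39 and 12.82 (3.04 ± 1.06), and hsp17.9 read 10.50 and 13.30 against 14.80 and 14.64 (2.82 ± 0.94). HSP17.7 and HSP17.9B, at -0.07 and 0.03, overlapped, and HSP18.8 was at -1.10. Control replicate 2 was above control replicate 1 for 9 of the 13 probe sets, and the list median was 1.31 without control replicate 1 and 3.74 without control replicate 2. Probe sets of this family can share sequence, and signals of close members may be mixed.

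The heat shock factors, which switch these genes on, had 4 of 17 bright probe sets separated higher and none lower, against 3.42% and 3.67% of all bright probe sets. HSF1 read 8.44 and 8.53 in control and 10.84 and 11.95 in salt, a difference of 2.91 ± 0.55. HSF05 (2.25 ± 0.46) and HSF10 (1.81 ± 0.52) also had control arrays within 0.5 log2 of each other. HSF24 was represented by 3 probe sets at 3.26, 2.22 and 1.67, the first of them separated. HSF01 overlapped, with control replicate 2 (10.40) above salt replicate 1 (9.30). The list median was 1.02, and it was 0.41 without control replicate 1 and 1.62 without control replicate 2. Of 14 bright probe sets of larger chaperones, DJC27 of the DnaJ class (2.60 ± 0.63) and CLPB1, which dissolves protein aggregates (2.17 ± 0.60), were separated, and the list median was 0.38.

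Calcium sensors lay in both directions. Of 56 bright probe sets of CBL-interacting kinases (CIPKs), calcium-dependent kinases and calmodulin-like proteins (CMLs), 5 were separated higher and 4 lower, against 3.42% and 3.67% of all bright probe sets, and the median was 0.09. CML16 read 10.35 and 9.80 in control and 13.34 and 14.29 in salt (3.74 ± 0.56). CML15 (2.58 ± 0.57), CML31 (2.07 ± 0.57), CIPK16 (1.77 ± 0.56) and CIPK6 (1.57 ± 0.49) were the other higher members. CIPK10 read 12.45 and 11.95 in control and 8.62 and 8.22 in salt, a difference of -3.78 ± 0.48, and its second separated probe set gave -3.88 ± 0.73. CPK1 (-1.78 ± 0.53) and CIPK7 (-1.30) were also lower.

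Other named genes among the 15 separated ones with the largest upward difference belonged to no list. OsPM19L1, a plasma membrane protein of the AWPM-19 family, had the largest difference, 5.21 ± 2.00, from 5.0 and 11.86 in control to 13.90 and 13.38 in salt, again with a deposited signal of 0.1 on control replicate 1. It was 1.78 without control replicate 1 and 8.64 without control replicate 2. BGLU16, a family 1 beta-glucosidase, read 9.56 and 8.00 against 12.20 and 14.09 (4.36 ± 0.83). The zinc finger gene OsC3H35 read 7.33 and 10.23 against 12.28 and 13.05 (3.89 ± 0.96). The lipid transfer protein LTP-2 differed by 3.64 ± 0.81, the UDP-glucose epimerase OsUGE-3 by 3.67 ± 0.80, SMR1, of the SIAMESE-related inhibitors of cyclin-dependent kinases, by 3.61 ± 0.70, and PDHE1-A (gene 4340640), a subunit of pyruvate dehydrogenase, by 4.25 ± 1.37. Without control replicate 1 the difference of PDHE1-A was 2.01 and that of OsC3H35 2.44. CCA1, a MYB factor of the morning loop of the circadian clock, read 9.38 and 11.34 against 13.34 and 14.44 (3.52 ± 0.79).

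**Figure D2:**
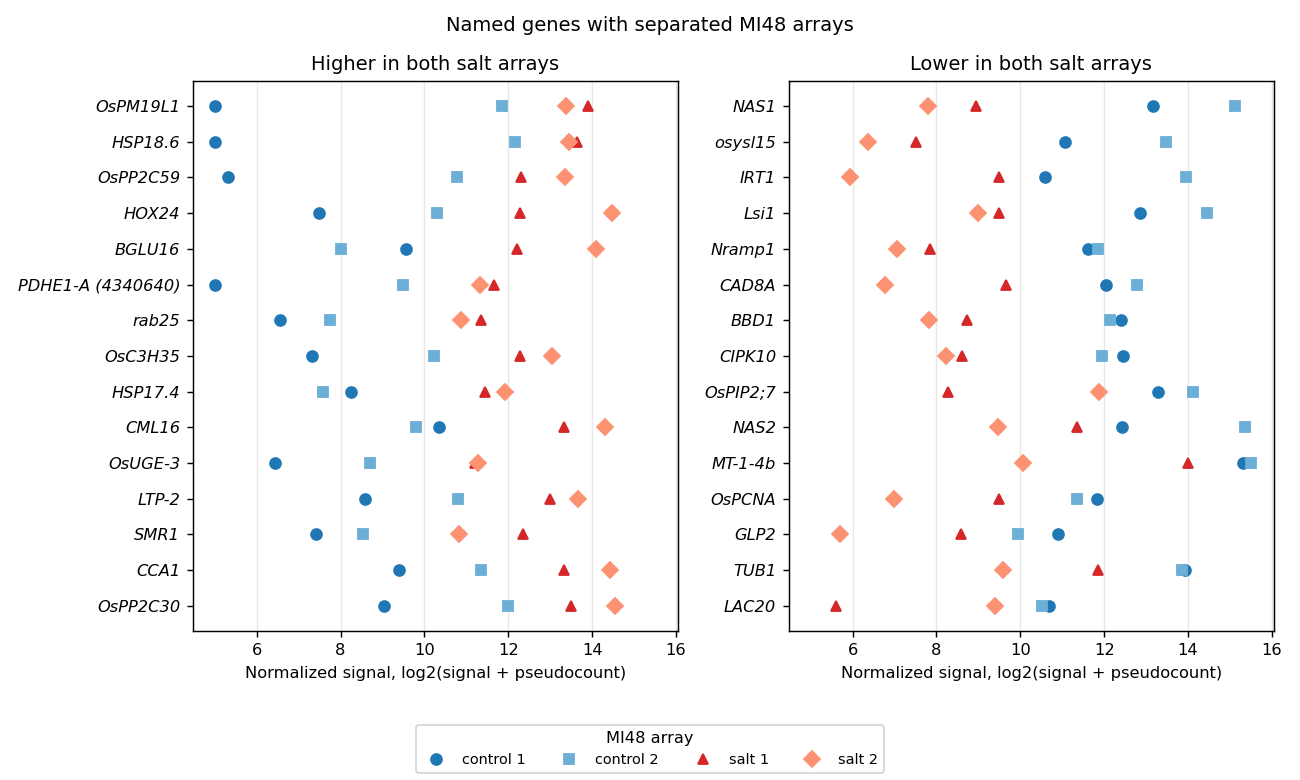
Normalized level, log2(signal + pseudocount), of 15 named genes separated higher (left) and 15 separated lower (right) on each MI48 array, with 1 point per array. On the left, control 2 (light squares) lies above control 1 (dark circles) for most genes, as for OsPM19L1 at 11.86 and 5.0; on the right, the controls lie close together for CIPK10, TUB1 and LAC20 and apart for NAS2 and IRT1.

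Genes of iron uptake held the lowest differences among the named genes. Of 21 bright probe sets of nicotianamine synthases, YSL and NRAMP transporters and their regulators, 7 were separated lower and none higher, against 3.67% of all bright probe sets, and the list median was -0.58 (0.68 under median scaling, which was below its shift of 1.13, and -0.63 or -0.43 without control replicate 1 or 2). NAS1, a nicotianamine synthase, read 13.16 and 15.13 in control and 8.95 and 7.81 in salt. Both salt arrays were over 4 log2 units below both controls, and the difference of -5.77 ± 0.79 was the lowest of all named genes. The iron-phytosiderophore transporter osysl15 read 11.06 and 13.47 against 7.51 and 6.36 (-5.33 ± 0.89). IRT1, the ferrous iron transporter, read 10.59 and 13.94 against 9.49 and 5.93 (-4.56 ± 1.46), and its gap was 1.10. Without control replicate 1 the differences were -6.75 for NAS1, -6.54 for osysl15 and -6.23 for IRT1, and without control replicate 2 they were -4.79, -4.13 and -2.88.

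The metal transporter Nramp1 had replicates close together, at 11.62 and 11.85 in control and 7.84 and 7.07 in salt (-4.28 ± 0.52). NAS2 read 12.43 and 15.36 against 11.35 and 9.46 (-3.49 ± 1.10), and differed by -2.03 without control replicate 2. NRAMP5, which carries manganese into roots, differed by -2.92 ± 0.69, and OsIRO2, a transcription factor of iron deficiency, by -2.08 ± 0.50. NAAT1, the nicotianamine aminotransferase, was lower by a gap of 0.54 only (-2.29 ± 0.84). The other members were spread around 0, with IDEF1 at 1.08 and NRAMP2 at 0.51 on the upper side. Deposited signals run the other way for some of these genes, since salt replicate 1 was so bright: NAS1 stood at 110.1 and 245.2 on the controls, at 447.6 on salt replicate 1 and at 7.5 on salt replicate 2.

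Markers of root tissue were lower on the salt arrays together with the iron genes, and 2 of the 3 bright ones, osysl15 and IRT1, are the same genes. The third, the silicon channel Lsi1, read 12.86 and 14.45 in control and 9.50 and 9.0 in salt (-4.41 ± 0.66). The fourth marker, Lsi2, was not bright. The summed normalized signal of the 4 root markers with a named probe set was 11961 and 53676 on the control arrays and 1698 and 590 on the salt arrays, and none of them was at 0 on any array. The photosynthesis list, used as leaf markers, had no separated member among 15 bright probe sets, next to 7.09% of all bright probe sets. Its share of the summed signal was 0.751% and 0.959% in control and 0.372% and 1.26% in salt, with the salt arrays on either side of the controls. Seed storage and endosperm genes had no bright probe set among 27, and made up 0.00605%, 0.00626%, 0.0435% and 0.00557% of the signal. The labels do not say which organs each RNA came from. In such samples less RNA of a gene per cell and a smaller share of root cells cannot be told apart, and the part of the root markers in the lower iron genes was not tested.

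The levels on the other arrays are given for comparison. On the 14 arrays normalized together, the median of the bright root markers was 11.08 and 13.83 on the MI48 controls and 9.56 and 6.27 on the MI48 salt arrays. It was 12.43 on the CSR27 control array and 13.22 on the CSR27 salt array with rice signal, and between 8.42 and 9.0 on all 8 bulk arrays, salt and control alike. Of the 3 bright root markers Lsi1 alone was lower on both salt than on both control arrays within each bulk, at 10.93 and 10.77 against 11.43 and 11.51 in the tolerant bulk and at 10.73 and 10.67 against 10.91 and 10.78 in the sensitive bulk. NAS1 was at 13.10 and 14.90, then 9.04 and 7.74, in MI48, 14.50 and 14.62 in CSR27, and 9.45 to 10.74 in the bulks. Both MI48 salt arrays thus lay below all bulk arrays for NAS1, while for the root marker median salt replicate 1 lay above them.

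**Figure D3:**
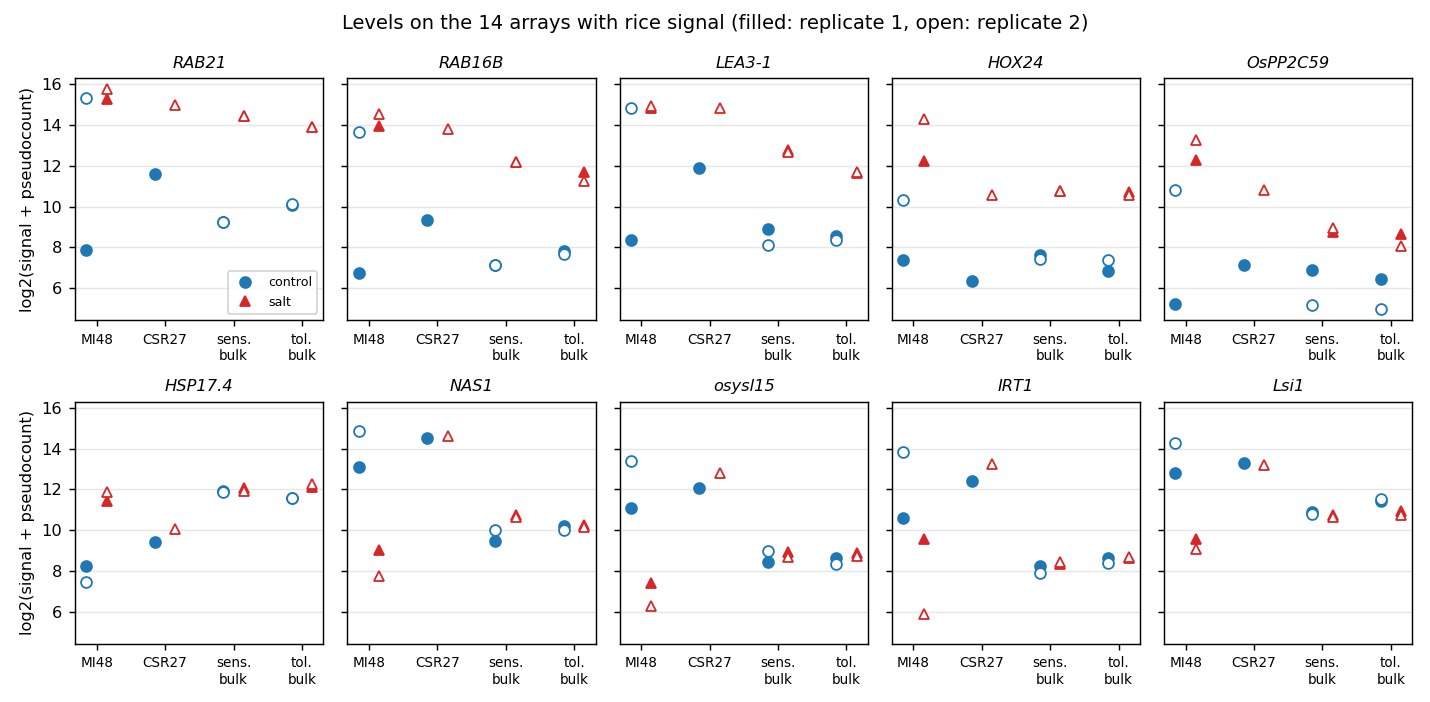
Level of 10 genes, log2(signal + pseudocount), on the 14 arrays with rice signal, by MI48, CSR27, sensitive bulk and tolerant bulk, with control as blue circles, salt as red triangles, replicate 1 filled and replicate 2 open. For RAB21, RAB16B and LEA3-1 the open MI48 control lies with the salt arrays, and for NAS1, osysl15, IRT1 and Lsi1 the MI48 controls and CSR27 lie above the MI48 salt arrays and the bulks.

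Cytoskeleton, cell wall and growth genes were lower for part of their lists. In the list of genes commonly taken as references, which holds tubulins, actins and ubiquitins, 8 of 42 bright probe sets were separated lower and 1 higher, against 3.67% and 3.42% of all bright probe sets, with a median of -0.59. The lower ones were tubulins and actins. TUB1 read 13.92 and 13.86 in control and 11.85 and 9.60 in salt (-3.17 ± 0.79), OsTUB8 differed by -2.88 ± 0.48 and OsTUB6 by -2.57 ± 0.51. ACT2 (-2.12 ± 0.64) and ACT1 (-1.95 ± 0.52) were lower as well, while the tubulin RTUB-2 was higher at 1.84.

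Of 36 bright cell wall probe sets 6 were separated lower and 1 higher, against the same background, with a median of -0.92 (0.09 under median scaling). The lower ones were the cellulose synthases CESA7, at 11.24 and 11.35 in control and 8.85 and 9.40 in salt (-2.17 ± 0.48), CESA4 (-2.13 ± 0.51 and -1.67 from 2 probe sets), CESA6 (-1.84 ± 0.54) and CESA8 (-1.53 ± 0.49), and the expansin EXPB2 (-1.93 ± 0.46). CESA4 and CESA7 are known from secondary walls in rice. CAD8A, of the cinnamyl alcohol dehydrogenase family, read 12.04 and 12.79 against 9.67 and 6.77 (-4.20 ± 0.96), and the laccase LAC20 read 10.67 and 10.52 against 5.61 and 9.40 (-3.09 ± 1.19). Outside the lists, BBD1, a nuclease gene linked to defence, read 12.40 and 12.13 against 8.74 and 7.83 (-3.98 ± 0.52), and the germin-like gene GLP2 read 10.89 and 9.95 against 8.60 and 5.70 (-3.27 ± 1.02).

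OsPCNA, the sliding clamp of DNA replication, read 11.83 and 11.35 in control and 9.49 and 6.99 in salt (-3.35 ± 0.85). The cell cycle list was centred at -0.05. Of its 42 probe sets 1 was separated higher and 2 lower, near the 3.42% and 3.67% of all bright probe sets. Its median turned sign with the control left out (0.08 without control replicate 1, -0.36 without control replicate 2). Ribosomal protein genes had a median of -0.98 over 37 bright probe sets, but only 1 separated member, and salt replicate 2 lay below salt replicate 1 for 29 of them. Control replicate 2 was above control replicate 1 for 2 of the 37, and the median was -0.43 without control replicate 1 and -1.39 without control replicate 2. RPL5 read 14.82 and 13.80 against 13.79 and 11.88, with a gap of 0.01. When the arrays were only scaled to a common median, the median of the ribosomal list was 0.40 and that of the reference list 0.78. Relative to the shift of 1.13 they remained below the middle, at -0.74 and -0.36.

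**Figure D4:**
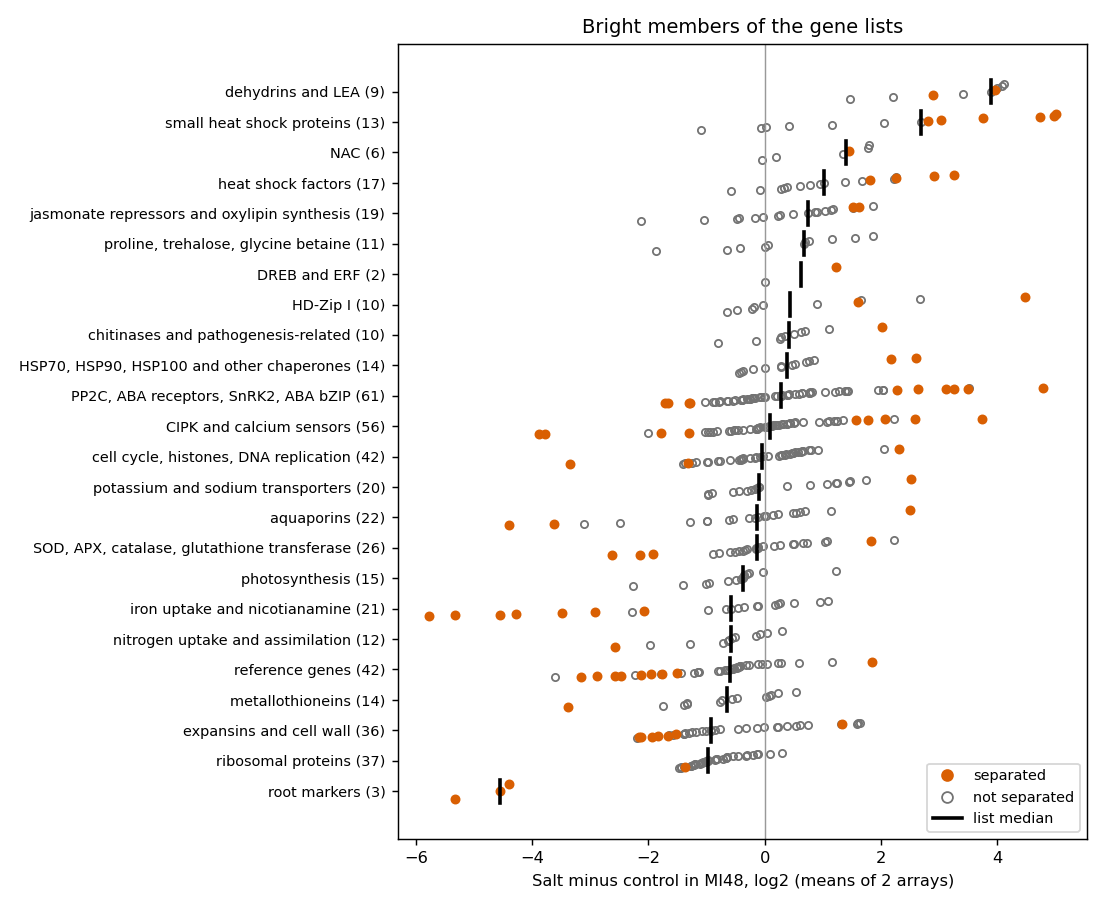
Difference between salt and control means in MI48 (log2) for the bright members of 24 gene lists, with list size in brackets, separated members as filled points and list medians as bars. Dehydrins and small heat shock proteins have the highest medians, 3.89 and 2.69, the former with 2 of 9 points filled, and root markers the lowest at -4.56.

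Ion transport and osmolyte lists are set here beside the 7.09% of all bright probe sets that were separated in either direction. Lists of 20 and 11 probe sets are too small to show a shortfall from that share. Of 20 bright probe sets of potassium and sodium transporters 1 was separated, the potassium channel KCO2, at 7.78 and 8.47 in control and 9.70 and 11.57 in salt (2.51 ± 0.75). HAK7, a potassium carrier, differed by 1.45 ± 0.68 with a gap of 0.23. HKT1;5, which removes sodium from the xylem sap, was not bright, at 7.18 and 9.65 in control and 6.96 and 6.86 in salt. No probe set carried the names NHX1 or SOS1. None of 11 bright probe sets of proline, trehalose and glycine betaine synthesis was separated, with a median of 0.68. P5CS1, which makes the proline precursor, read 12.15 and 12.75 against 12.62 and 13.83 (0.77 ± 0.62), so that its groups overlapped, as did those of P5CS2 (0.68 ± 0.78). The lectin gene salT, named for its response to salt, was near the top of the range on all arrays, at 15.87 and 16.12 in control and 16.36 and 16.02 in salt (0.19 ± 0.59).

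Aquaporins were split. Of 22 bright probe sets Lsi1 and OsPIP2;7 were separated lower and OsTIP3 higher, against 3.67% and 3.42% of all bright probe sets. The median was -0.13, and its sign turned with the control left out, to -0.49 without control replicate 1 and 0.16 without control replicate 2. OsPIP2;7, a plasma membrane water channel, read 13.28 and 14.12 against 8.27 and 11.87 (-3.63 ± 1.15). OsTIP3 differed by 2.50 ± 0.61. OsTIP2, at 12.39 and 13.98 against 11.61 and 8.54, missed the gap of 1 log2.

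The lists for oxidative stress, nitrogen and defence each held separated members, set beside 3.42% higher and 3.67% lower of all bright probe sets. The 3 bright probe sets of the catalase gene CAT-A were lower (-1.92 ± 0.52 for the brightest, and -2.63 and -2.14), and the glutathione transferase gst2 was higher (1.83 ± 0.56), among 26 bright probe sets. GLN1-2, a cytosolic glutamine synthetase, read 14.21 and 13.99 against 11.96 and 11.08 (-2.57 ± 0.55) and was the only separated one of 12 nitrogen probe sets. Of 14 metallothionein probe sets MT-1-4b was lower (-3.38 ± 1.23). Cht6 was the separated chitinase of 10 probe sets of that list (2.02 ± 0.62), and the pathogenesis-related gene PBZ1 overlapped at 1.11 ± 0.90. Of 19 bright probe sets of jasmonate repressors and oxylipin synthesis JAZ12 (1.53 ± 0.53) and AOS3 (1.62 ± 0.49) were separated higher. The list medians were -0.13 for oxidative stress (-0.22 or 0.0061 without control replicate 1 or 2), -0.59 for nitrogen, -0.64 for metallothioneins, 0.43 for chitinases and pathogenesis-related genes, 0.74 for jasmonate and -0.37 for photosynthesis. The small subunit of Rubisco, OsrbcS, overlapped between groups at -0.96 ± 0.72.

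The bulks share no array with MI48 and served as a comparison. Of the 490 probe sets separated higher in MI48, 74.5% had a salt difference above 0 in the sensitive bulk and 74.7% in the tolerant bulk, next to 48.9% and 51% of all bright probe sets. For the 525 lower ones the shares below 0 were 61.7% and 65.9%, next to 51.1% and 49%. In size the bulks differed less: the median difference of the higher set was 2.20 in MI48, 0.36 in the sensitive and 0.30 in the tolerant bulk, and that of the lower set was -2.06, -0.15 and -0.14. The MI48 medians come from the arrays that chose the probe sets and are a description. A mean bulk difference of at least 1 was present for 16.7% of the higher set, next to 1.94% of all bright probe sets, and one of -1 or below for 4.57% of the lower set, next to 0.74%. All 4 bulk salt arrays lay above all 4 bulk control arrays for 34.9% of the higher set, next to 11.3% of all bright probe sets, and below them for 22.3% of the lower set, next to 9.05%.

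Several of the genes with the largest upward differences were also higher in the bulks. The differences in the sensitive and tolerant bulk were 3.37 and 3.70 for HOX24, 2.96 and 2.74 for OsPP2C59, 3.29 and 2.53 for OsPM19L1, and 2.12 and 2.62 for OsPP2C30, with all 4 bulk salt arrays above all 4 control arrays for each. RAB21 differed by 5.23 and 3.80 there without overlap. The lowest iron genes of MI48 were not lower in the bulks: NAS1 differed by 0.99 and 0.10, osysl15 by 0.11 and 0.31 and IRT1 by 0.33 and 0.14. With both bulks pooled their arrays overlapped, but within the sensitive bulk both salt arrays were above both controls for NAS1 and IRT1, and within the tolerant bulk they were for osysl15 and, by a small margin, IRT1. Nramp1 (-0.95 and -1.32) and CIPK10 (-0.89 and -1.18) were lower in both bulks, with no overlap. CCA1 differed by 0.15 and 0.15.

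**Figure D5:**
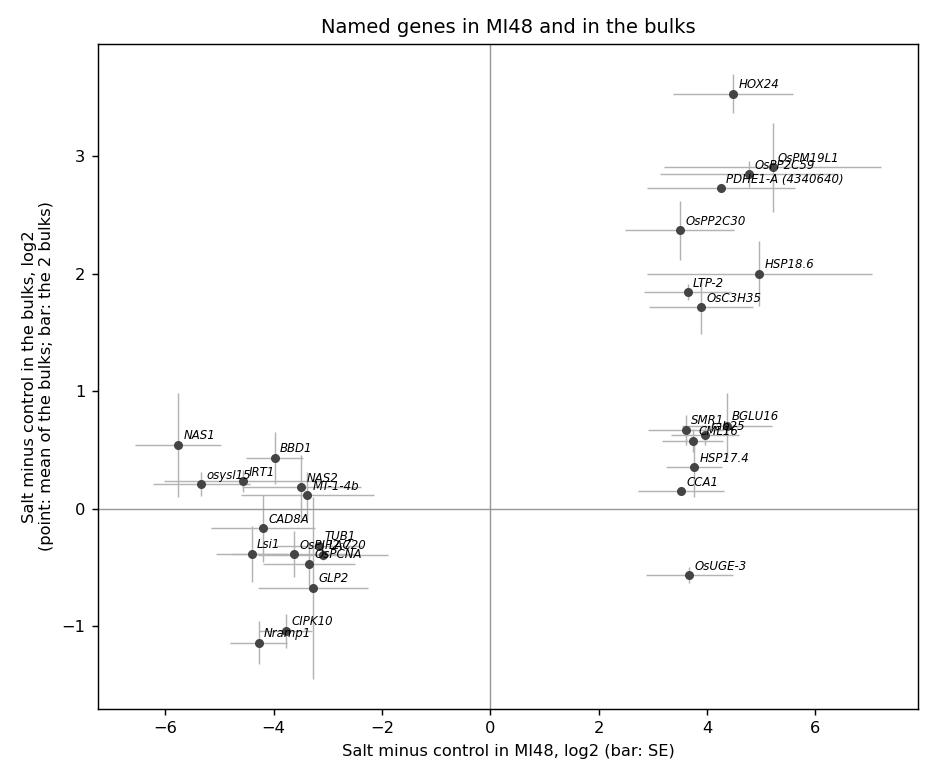
Difference between salt and control in the bulks (vertical axis, log2; point at the mean of the bulks, bar from one bulk to the other) against that in MI48 (horizontal axis, log2; bar is the SE) for the 30 named genes of largest separation. HOX24, OsPP2C59 and OsPM19L1 are high on both axes, while NAS1, osysl15 and IRT1 are low in MI48 and slightly above 0 in the bulks.

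The difference between the MI48 response and the mean response of the bulks was tested over 12 arrays, with array weights estimated for each class. The weights were 0.152 for MI48 and 2.56 for bulk arrays, since MI48 arrays varied more. Of 14315 probe sets 5 (0.0349%) were higher and 8 (0.0559%) lower in MI48 than in the bulks at an adjusted p of 0.05, and 1456 (10.2%) had an unadjusted p under 0.05. Among named genes, the response of NAS1 was 6.21 log2 units lower in MI48 (difference -6.21 ± 0.82, limma adjusted p = 0.0153) and that of Lsi1 was lower too (-3.84 ± 0.57, adjusted p = 0.0295). The response of HSP17.4 was higher (3.54 ± 0.49, adjusted p = 0.0209), as was that of MtN3-like (gene 4326923; 3.81 ± 0.60, adjusted p = 0.0409), which was not bright on the MI48 arrays alone. With the replicate number as a block the call of MtN3-like was lost (adjusted p = 0.0603). With 14 arrays normalized together, HSP17.4 was at 8.27 and 7.48 on the MI48 controls, at 11.44 and 11.90 on the MI48 salt arrays and at 11.58 to 12.25 on the bulk arrays of both treatments, so the bulks lay near the MI48 salt level under either treatment. Without MI48 control replicate 2 none of these named genes kept an adjusted p under 0.05 (NAS1 0.107, Lsi1 0.152, HSP17.4 0.110, MtN3-like 0.152), and without control replicate 1 that of MtN3-like was 0.0574. For osysl15, at -5.76, the adjusted p was 0.056, and for HOX24, at 0.95, it was 0.83.

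The test was also fitted on all 14 arrays with rice signal, weighted by class. The CSR27 arrays with rice signal, 1 control and 1 salt, added no spread. The p-values thus rest on the spread between MI48 replicates and between bulk replicates. Of 14315 probe sets, 17 were higher and 38 lower in MI48 salt at a limma adjusted p of 0.05. All 55 were also separated on the MI48 arrays, but the same MI48 values enter both, so this is no separate support. This fit was added after the values had been seen. It called the iron genes NAS1 (-5.61 ± 0.75, adjusted p = 0.0119), osysl15 (-5.41 ± 0.89, adjusted p = 0.0265) and Nramp1 (-4.36 ± 0.79, adjusted p = 0.0422), and Lsi1 (-4.22 ± 0.54, adjusted p = 0.00997). It did not call the iron genes IRT1 (adjusted p = 0.112) and NAS2 (adjusted p = 0.261). Named genes of other kinds were called lower as well. These were BBD1 (-3.94 ± 0.64) and 1 probe set of CIPK10 (-3.89 ± 0.64), both at an adjusted p of 0.0265. Another probe set of CIPK10 was not called (adjusted p = 0.0582). GER5 (adjusted p = 0.0256), OsTUB6, CAD8C and ADIPOR1 (each adjusted p = 0.0482) were also among the lower calls. On the higher side the fit called HSP17.4 (3.79 ± 0.47, adjusted p = 0.00997), CML16 (3.58 ± 0.48, adjusted p = 0.0119) and MS (3.18 ± 0.53, adjusted p = 0.0267). It also called BGLU16 (4.25 ± 0.76, adjusted p = 0.0389), LTP-2 and CCA1 (both adjusted p = 0.0482). HOX24 had an adjusted p of 0.0773, OsPP2C59 of 0.399 and RAB21 of 0.314. With all 16 arrays, 2 of which carried no rice signal, the count was 0.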

How the data were processed

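The values are the probe set signals of Affymetrix rice arrays as the authors deposited them, an intensity on a linear scale with no detection calls. GCOS 1.2 is named in the submitters' processing notes; the scaling target is not stated there, and no genome build was needed. Each array was hybridised with cRNA made from 8 ug total RNA, per the labels' protocols.

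The 123 AFFX control probe sets were left out. Each array was scaled to a 2% trimmed mean of 500 and the 4 MI48 arrays were quantile normalized. The pseudocount was the 25th percentile of the normalized signals, and bright probe sets had a mean at or above the 75th percentile. limma 3.58.1 in R 4.3.3 (lmFit, eBayes with trend, two-sided, Benjamini-Hochberg) gave differences, errors and p-values, and its steps were tested on simulated data. For the comparison with the bulks, 12 arrays were normalized together (pseudocount 21.8), and for the 14 arrays with rice signal the pseudocount was 23.7. The other 2 arrays, of CSR27, had a rank correlation of 0.0101 or below with every array that had signal. The number of arrays limits the precision.

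A probe set was named through the platform annotation and a RefSeq gene table: 22436 probe sets had 1 gene, 95 several and 34727 none, and 3177 carried a gene name. Named were the 15 separated genes with the largest difference each way (the brightest probe set standing for a gene), up to 4 bright members of each of 25 lists with the largest absolute difference, and 15 genes given in any case. Other list members named here are those that were separated, or were picked after their values were seen. The members, lists and tests were chosen with earlier results of these data known. Group and replicate came from the sample titles. Replicate numbers are not stated to mark shared days or litters, and the correlation of the replicate differences of control and salt was 0.24. Alternatives were other scalings, pseudocounts, filters, arrays left out, a replicate block and other sets of arrays. One planned description of promoter motifs was not run.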

Additional observations from a re-analysis of the deposited data

Results flagged for a closer look

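For 13 probe sets the salt response of MI48 differed from the mean of the bulk responses by limma's test of the difference over 12 arrays (adjusted p under 0.05). The responses of 4 named genes were NAS1 at -6.21, Lsi1 at -3.84, HSP17.4 at 3.54 and MtN3-like (gene 4326923) at 3.81 log2 units, MI48 minus bulks. The unnamed probe sets with a lower response were Os.12430.1.S1_at at -4.60, Os.36913.1.S1_at at -4.30, Os.12629.1.S1_at at -4.23, Os.47625.1.A1_s_at at -4.07, Os.17921.1.S1_at at -3.69 and Os.11335.1.S1_at at -3.14. Those with a higher response were OsAffx.5206.1.S1_s_at at 6.51, Os.40384.1.S1_at at 6.31 and OsAffx.24157.1.S1_s_at at 3.20.

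The deposited signals of Os.40384.1.S1_at were 0.1 and 1.1 on the MI48 controls and 3793.8 and 165.0 on the salt arrays. It was not bright on the MI48 arrays alone, and neither was OsAffx.5206.1.S1_s_at, at 0.1 and 0.4 in control and 3411.6 and 128.1 in salt. The control signals of both lay near the bottom of the scale, so the sizes of these differences depend on the pseudocount. A smaller pseudocount was not tried for the comparison with the bulks. Between the single CSR27 control and salt arrays with rice signal, Os.40384.1.S1_at differed by 6.70 and OsAffx.5206.1.S1_s_at by 3.999. The adjusted p of Os.40384.1.S1_at stayed at or below 0.00961 with any 1 MI48 array left out, and OsAffx.5206.1.S1_s_at stayed at or below 0.0359. Without MI48 control replicate 2 the adjusted p of Os.12430.1.S1_at was 0.0687 and that of Os.12629.1.S1_at 0.0607. Groups of 2 arrays were too small for a search for single outlying samples.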

How the results depend on the processing

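The count of limma calls in MI48, 0, was also 0 under both other scalings, the smaller pseudocount, every filter and all 16 arrays (349 at an unadjusted p under 0.05). It was between 0 and 19 with 1 MI48 array left out (19 without salt replicate 1, 4 without salt replicate 2), 2705 with 14 arrays and 55 with those arrays weighted by class. With the replicate number as a block it was 0 (2531 at an unadjusted p under 0.05), and the same-numbered samples share only a number.

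Separated probe sets numbered 4178 higher and 56 lower under median scaling, 2714 and 2601 with no filter, 1300 and 998 with a filter at the median, and 175 and 201 in the top 10%. With 1 array left out they ranged from 906 to 1788 and from 791 to 1965, since fewer arrays must then be apart. With gaps of at least 2 log2 they numbered 77 and 81, and with any gap 3203 and 3320. A limit on the dimmer group gave 410 and 482.

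The 13 calls against the bulks became 1620 under median scaling, 47 with no filter, 28 with a filter at the median, 8 in the top 10%, 761 without array weights, 10 with the replicate block (which lost MtN3-like, Os.11335.1.S1_at, Os.17921.1.S1_at and Os.36913.1.S1_at, each at an adjusted p of 0.0603) and between 13 and 307 with 1 MI48 array left out. The cause of these moves was not tested.

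Median scaling turned the sign of APX6 (0.37), OsrbcS (0.51), PSB28 (0.68), GDH (0.42), NIA1 (0.70), RPS3A (0.16), RPS26 (0.043), MT2C (0.58), MT2B (1.05) and MT1B (0.77), all under its shift of 1.13. With 1 array left out, signs turned within the ranges of RAB16D (-0.58 to 9.01), EREBP-1 (-0.18 to 0.20), NAC067 (-0.29 to 0.65), NAC068 (-0.43 to 2.096), PSB28 (-1.43 to 0.19), GDH (-1.47 to 0.0050), NIA1 (-2.08 to 0.82), Cht10 (-1.61 to 0.10), Cht1 (-0.93 to 3.33), MT2C (-2.64 to 0.17), MT2B (-2.08 to 0.66), MT1B (-1.64 to 0.52) and P5CS2 (-0.22 to 1.57).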

Other observations

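Some genes outside the lists were separated in MI48 as well. Apart from CCA1, which the naming rule chose, they were picked after their values were seen. Of these genes the 14-array fit weighted by class called CCA1 (adjusted p = 0.0482) and GER5 (adjusted p = 0.0256). The clock gene CCA1 was higher (3.52), and 2 pseudo-response regulators of the clock, OsPRR1 (-1.89 ± 0.51) and OsPRR95 (-1.55 ± 0.51), were separated lower, while their differences in the sensitive and tolerant bulk were 0.23 and -0.13, and 0.08 and 0.06. Of the germin-like genes, GER1 (-2.70), GER4 (-2.62), GER5 (-2.85), GER7 (-1.69) and GER8 (-2.65 and -2.07) were separated lower, and GER2 (0.16) and GER6 (-0.56) overlapped. Among all bright probe sets 3.67% were separated lower, and the germin-like genes were not a planned list. The sucrose synthase OsSUS1 was lower by both of its separated probe sets (-2.98 and -2.90). The arginine decarboxylase gene ADC1, of polyamine synthesis, had 1 probe set at 4.14 ± 0.76 and another at 1.31 ± 0.49, and was below 0 in both bulks. The phytoene synthase OsPSY3, of the carotenoid pathway that leads to ABA, was higher at 3.06 ± 0.70, and 0.74 and 1.27 in the sensitive and tolerant bulk.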
